A study of Rattus norvegicus with 18 samples.

Results

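The genes of the mitochondrial respiratory chain and of the ATP synthase were examined in 3 regions of the rat brain, with and without chronic stress. Members were all genes whose symbol begins with Nduf, Uqcr, Cox4 to Cox8 or Atp5, together with Sdha, Sdhb, Sdhc, Sdhd and Cycs, taken from probe sets that the platform annotation ties to 1 gene symbol. The rule used names only, and where a gene had several probe sets the one of highest mean intensity over all 18 arrays stood for it. It found 86 genes, read by 96 probe sets, among the 14217 genes named on the array. Cycs, which encodes cytochrome c, had only probe sets with several symbols and so is not a member, and the same holds for Cox7a2, Atp5mc1, Atp5mc2, Uqcrb, Ndufs5 and Ndufa10. Cox6c-ps1, which the annotation lists as a pseudogene of Cox6c, was kept because its symbol met the rule.

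Total RNA from the amygdala, the hippocampus and the cortex was hybridised to 18 Affymetrix arrays, 3 for each region of rats given chronic immobilization stress and 3 for each region of rats that were only handled. The labels give no strain, sex, age or stress schedule. They also leave out whether each array of a group stands for its own animal, for a pool or for a repeat of 1 RNA, and whether regions came from the same rats. The p-values thus describe only how much these arrays varied, and that variation may be technical. The comparisons ask whether chronic immobilization changed the transcripts of oxidative phosphorylation in a region, and how the regions differ without stress.

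The respiratory chain passes electrons from NADH and succinate to oxygen and pumps protons across the inner mitochondrial membrane, and the ATP synthase uses the returning protons to make ATP. NADH enters at complex I, succinate at complex II, and electrons then run through complex III and cytochrome c to complex IV. Nearly all subunits are encoded in the nucleus and imported, while a small set is encoded by mitochondrial DNA. In brain most ATP comes from this pathway, and neurons spend much of it on restoring ion gradients after signalling.

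Values are the deposited intensities on a linear scale. The trimmed mean of each array lay between 150.043 and 150.047, so a change shared by all transcripts cannot be seen on such a scale. The medians were not equal, and ran from 52.8 to 56.4 on the amygdala arrays, from 49.1 to 52.9 on the hippocampus arrays and from 49.6 to 51.2 on the cortex arrays. A further label field names the amygdala for all 18 arrays, so the titles were checked against region markers. In the handled arrays 6 of 6 amygdala markers were higher in amygdala than in hippocampus and 5 of 6 higher than in cortex, 4 of 5 hippocampus markers were higher and 1 lower in hippocampus than in amygdala, and 7 of 7 neocortex markers were higher in cortex than in hippocampus. Against amygdala, cortex was higher for 3 of those 7. Within groups, Spearman correlations between arrays over all 31099 probe sets ran from 0.930 to 0.969.

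Of the 86 members, 81 passed the filter on low intensity and were tested. They comprise 6 core and 28 accessory subunits of complex I, 6 complex I assembly factors, 4 subunits of complex II, 7 of complex III, 14 genes of complex IV and 16 of the ATP synthase. The other 5 lay below the filter, which was a mean of 31.7. They were Cox4i2, Cox6a2, Cox6b2, Cox7b2 and Cox8b, isoforms of complex IV subunits whose main sites of expression are outside the brain, and their intensities ran from 0.99 for Cox8b to 47.1 for Cox6b2. No stress or region comparison was made for them.

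No respiratory chain gene passed the test for stress against handling within any region. The test was limma's moderated test on log2(intensity + 16), adjusted by Benjamini-Hochberg over the 18625 probe sets tested, with a threshold of 0.05. In the amygdala 0 of 81 members were called, where 2.41% of all probe sets were. In the hippocampus it was 0 of 81 against 0.365%, and in the cortex 0 of 81 against 0.387%. Without adjustment 12, 7 and 14 members had a p under 0.05 in amygdala, hippocampus and cortex, or 14.8%, 8.64% and 17.3% of members. Over all probe sets the shares were 13.6%, 10.9% and 10.2%. The median log2 change of the members was 0.03 in amygdala, -0.01 in hippocampus and -0.04 in cortex, against 0.01, 0.00 and 0.00 over all probe sets tested.

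The precision of these values bounds what was seen. The median standard error of a member's log2 change was 0.07. The 95% confidence interval lay within 0.5 log2 units of 0 on both sides for 73 members in amygdala, 76 in hippocampus and 77 in cortex. Estimated changes ran from -0.33 to 0.32 in amygdala, from -0.31 to 0.15 in hippocampus and from -0.28 to 0.27 in cortex. The 3 stress and 3 handled arrays did not overlap for 13 members in amygdala, 11 higher and 2 lower. They did not overlap for 9 members in hippocampus, 4 higher and 5 lower, and for 22 in cortex, 9 higher and 13 lower. As shares of the members these are 16.05%, 11.1% and 27.2%, against 16.6%, 14.2% and 23.3% of all probe sets tested. Of all probe sets 8.11% were higher and 8.48% lower without overlap in amygdala, 7.12% and 7.04% in hippocampus, and 12.1% and 11.2% in cortex.

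**Figure D1:**
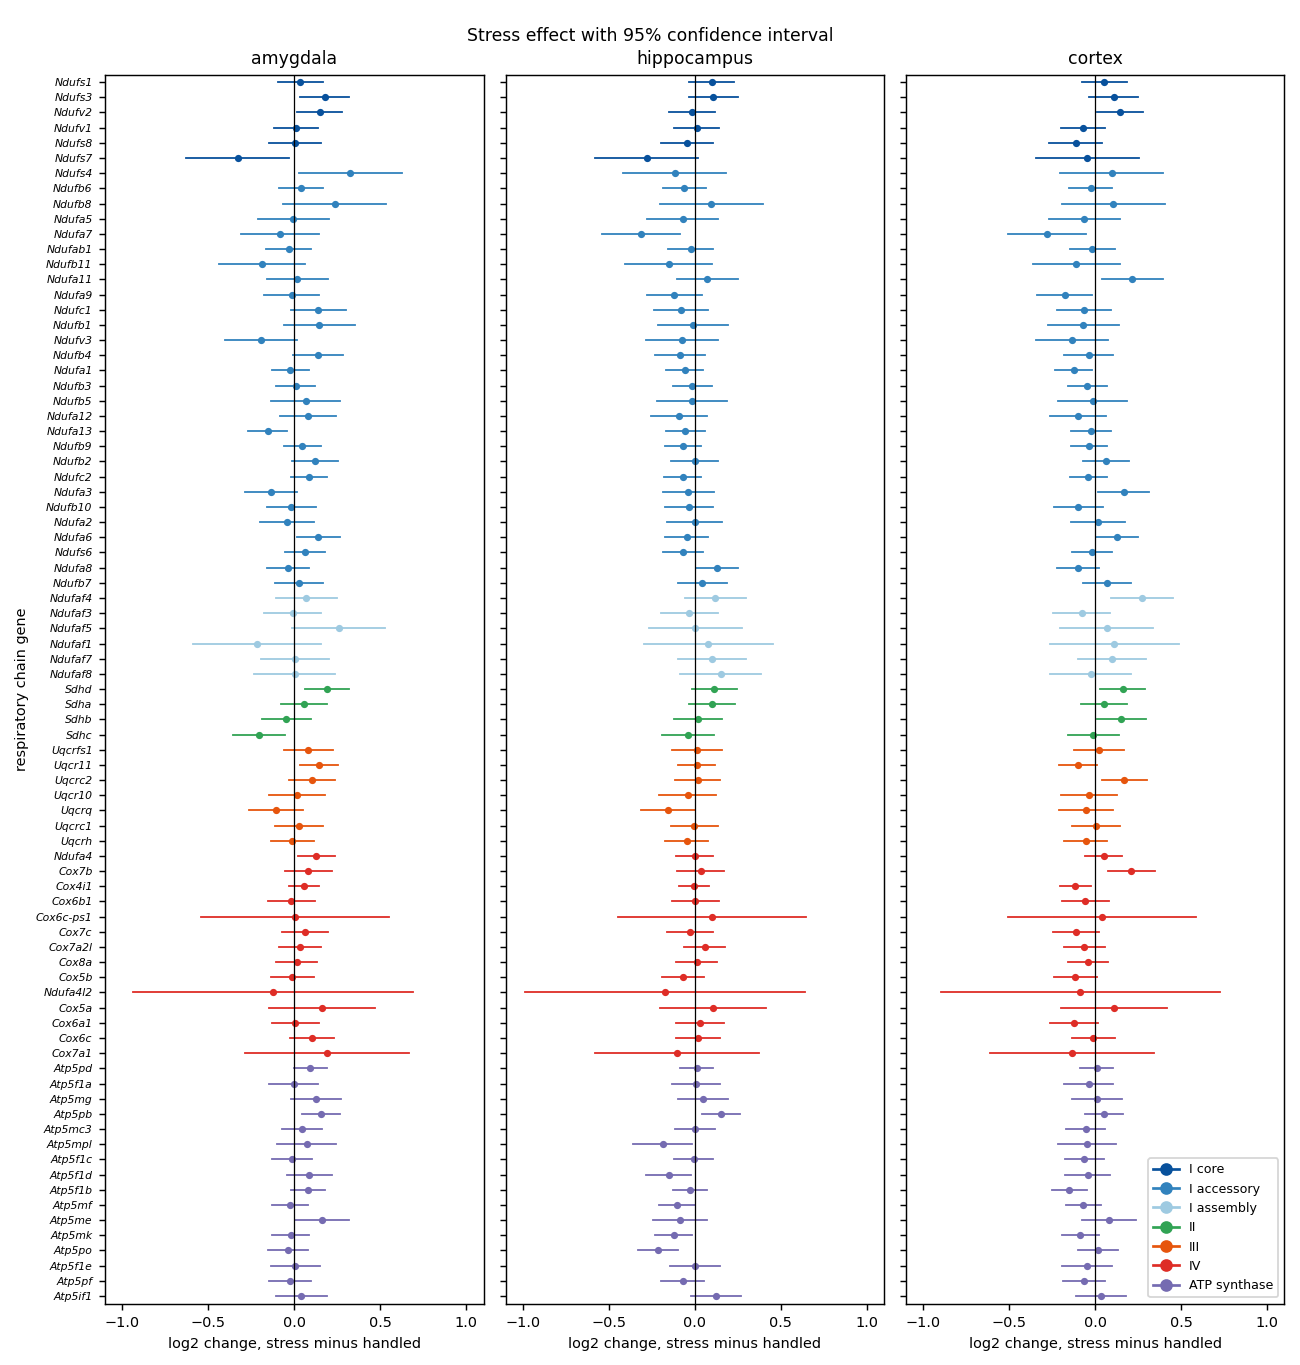
Log2 change, stress minus handled, of the 81 tested respiratory chain genes in the amygdala, the hippocampus and the cortex, with points for the estimate, bars for its 95% confidence interval and colours for the complex. None passed the adjusted test in any region, and the median change was 0.03, -0.01 and -0.04.

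In the amygdala the smallest p-values among members belonged to Sdhd, Atp5pb and Sdhc. Sdhd encodes a membrane anchor of complex II, which feeds electrons from succinate into the chain. Its intensity was 664, 709 and 697 on the handled arrays and 782, 791 and 793 on the stress arrays. All stress arrays lay above all handled arrays, with a log2 change of 0.19 ± 0.06 and a limma adjusted p of 0.141. The other membrane anchor, Sdhc, read 1031, 1073 and 1038 on the handled arrays and 951, 833 and 936 on the stress arrays, with a log2 change of -0.21 ± 0.07 (limma adjusted p = 0.164). These anchors of the same complex had estimates of opposite sign, and neither passed. Sdha, the flavoprotein, had 0.06 ± 0.06 and Sdhb, the iron-sulfur subunit, -0.05 ± 0.07.

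Atp5pb, a stalk subunit of the ATP synthase, read 1915, 2028 and 1826 in handled and 2092, 2266 and 2073 in stressed amygdala, and the groups did not overlap. The log2 change was 0.16 ± 0.05 (limma adjusted p = 0.163). Ndufs7, an iron-sulfur subunit of the complex I core that was singled out after its values were seen, read 853, 825 and 852 on the handled arrays and 922, 561 and 576 on the stress arrays. The stress array numbered 1 lay above all handled arrays and the other stress arrays lay below them. With it the log2 change was -0.33 ± 0.14 (limma adjusted p = 0.305), and without it -0.56 (limma adjusted p = 0.0118), which made it the 1 member called in amygdala. On that array the median member lay 0.07 log2 units above its own mean over all arrays, against -0.04 and -0.05 on the other stressed amygdala arrays.

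The 3′ to 5′ signal of the hexokinase control, a gauge of RNA or labelling quality, also differed between these groups. Its log2 difference was 1.23 ± 0.07 (SD, n = 3) on the stressed and 0.83 ± 0.08 (SD, n = 3) on the handled amygdala arrays. Its part in the amygdala values was not tested. The same control read 1.17 ± 0.15 against 1.02 ± 0.11 in hippocampus and 1.28 ± 0.12 against 1.11 ± 0.09 in cortex (SD, n = 3). Other controls were close between stressed and handled amygdala. The beta-actin control read 2.15 ± 0.24 against 2.07 ± 0.08 and the GAPDH control 0.448 ± 0.08 against 0.450 ± 0.04 (SD, n = 3).

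In the hippocampus the members with the smallest p-values were Atp5po, Ndufa7 and Atp5pb. Atp5po, which encodes the oligomycin sensitivity protein at the top of the ATP synthase stalk, read 1954, 1775 and 1894 on handled arrays and 1593, 1502 and 1753 on stress arrays. The groups did not overlap, and the log2 change was -0.21 ± 0.06 (limma adjusted p = 0.118). Without the stressed hippocampus array numbered 3 it was -0.27 (limma adjusted p = 0.0460), the 1 member called on leaving out an array of this region. Ndufa7, an accessory subunit of complex I, had a log2 change of -0.31 ± 0.11 (limma adjusted p = 0.267), and Atp5pb 0.15 ± 0.05 (limma adjusted p = 0.274). Atp5pb and Atp5po had estimates of opposite sign within 1 enzyme. Over the ATP synthase genes 7 of 16 estimates were above 0, and their median was -0.02.

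In the cortex Cox7b, a small subunit of complex IV, read 3094, 3070.2 and 3198 on handled arrays and 3641, 3541 and 3647 on stress arrays. The log2 change was 0.21 ± 0.07 (limma adjusted p = 0.223). Ndufaf4, a complex I assembly factor, read 290.4, 269 and 280.3 on handled and 332, 336 and 357 on stress arrays, with a log2 change of 0.27 ± 0.09 (limma adjusted p = 0.227). For both genes every stress array lay above every handled array. When the spread was estimated from the cortex arrays alone, both passed, at limma adjusted p of 0.0139 for Cox7b and 0.0469 for Ndufaf4. Atp5f1b, the catalytic beta subunit of the ATP synthase, read 4069, 3975 and 4023 in handled and 3502, 3728 and 3637 in stressed cortex, with a log2 change of -0.15 ± 0.05 (limma adjusted p = 0.241). All its stress arrays lay below the handled ones. Cox4i1, the most common isoform of subunit 4 of complex IV, had -0.12 ± 0.04.

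Markers of other cell types moved with stress in each region. In amygdala 2 of 8 markers of striatal medium spiny neurons were higher, none of the 8 had an estimate below 0, and their sum lay between 3257 and 3594 on handled and between 4286 and 4497 on stress arrays. In hippocampus 2 of 4 choroid plexus markers tested were higher, with sums over 6 genes between 1239 and 1360 on handled and between 3552 and 3752 on stress arrays. There 2 of 10 oligodendrocyte markers were lower and all 10 had estimates below 0, with sums between 22287 and 24830 on handled and between 18875 and 21183 on stress arrays. In cortex, of 9 meningeal fibroblast markers 7 were lower, with a summed intensity between 4709 and 4971 on handled and between 2060 and 2141 on stress arrays, and no marker of these lists was listed at 0. Of 2 erythroid markers 1 was lower in each region, with sums on handled and stress arrays of 2075 to 2304 and 1526 to 1827 in amygdala, 2022 to 2187 and 1086 to 1312 in hippocampus, and 3117 to 3355 and 1933 to 2092 in cortex. In these bulk samples fewer cells of a type and less RNA per cell cannot be told apart. The part of these markers in the members' stress values, Sdhd, Atp5pb and Atp5po included, was not tested.

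Averaged over the 3 regions, 3 of 81 members passed the test, which is 3.7% of them, against 4.66% of all probe sets. Sdhd and Atp5pb rose and Ndufa7 fell. Among all probe sets 1.59% rose and 3.07% fell. Sdhd had a mean log2 change of 0.15 ± 0.04 (limma adjusted p = 0.0134). Its hippocampus arrays read 876, 893 and 964 handled and 974, 1059 and 930.0 stressed, and its cortex arrays 964, 859 and 936 and 1017, 1009 and 1059. The groups overlapped in hippocampus and did not in amygdala and cortex. A second probe set of Sdhd gave a mean log2 change of 0.04 ± 0.05 (limma adjusted p = 0.693) and did not pass. With no trend in the variance prior, none of the 3 passed, and the limma adjusted p of Sdhd was 0.0570.

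Atp5pb had a mean log2 change of 0.12 ± 0.03 (limma adjusted p = 0.025). It read 2326, 2236 and 2302 in handled and 2585, 2457 and 2599.8 in stressed hippocampus, where the groups did not overlap, and 2132, 2037 and 2253 and 2232, 2247 and 2178 in cortex, where they did. Leaving out any 1 of 6 arrays raised its adjusted p above 0.05, to at most 0.0653. Those arrays were stressed amygdala 2, handled amygdala 3, handled hippocampus 2, stressed cortex 1 and 2 and handled cortex 2.

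Ndufa7 had a mean log2 change of -0.23 ± 0.06 (limma adjusted p = 0.0396). Its handled arrays read 765, 835 and 748 in amygdala, 967, 805 and 1179 in hippocampus and 1082, 865 and 912 in cortex, and its stress arrays 750.2, 689 and 770.0, 873, 681 and 796 and 779.6, 726 and 838. Groups overlapped in amygdala and hippocampus. A second probe set of Ndufa7 had the opposite sign, at 0.09 ± 0.08 (limma adjusted p = 0.605), and the call held in 11 of 27 alternative settings. It was lost on leaving out any 1 of 12 arrays, with limma adjusted p of at most 0.0975. Those were stressed amygdala 2, handled amygdala 1, 2 and 3, stressed hippocampus 2 and 3, handled hippocampus 1 and 3, stressed cortex 1 and 2 and handled cortex 1 and 3. The count of called members was 1 without stressed amygdala 2, stressed cortex 1 or stressed cortex 2, and 5 without stressed amygdala 1. For Uqcrc2, a core protein of complex III, the main probe set gave 0.10 ± 0.04 (limma adjusted p = 0.149) and a second one 0.43 ± 0.12 (limma adjusted p = 0.0343). The remaining reference genes, which were named whatever they did, did not pass, with mean log2 changes of -0.02 for Ndufv1, 0.06 for Ndufs1, 0.07 for Sdha, 0.04 for Sdhb, 0.01 for Uqcrc1, -0.02 for Cox4i1 and -0.01 for Atp5f1a.

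No member passed the test of whether the stress effect differed between regions. Of 81 members 0 passed the interaction test of amygdala against hippocampus, of amygdala against cortex and of hippocampus against cortex, against 0.0376%, 0.129% and 0.0859% of all probe sets by limma. At an unadjusted p under 0.05 there were 8, 4 and 3 members, or 9.88%, 4.94% and 3.70% of members. Over all probe sets the shares were 8.05%, 9.71% and 5.61%. All 8 in the first comparison had the higher estimate in amygdala, or 9.88% of members against 4.03% of all probe sets. The estimate was above 0 in all 3 regions for 19 members, below 0 in all 3 for 20, and of mixed sign for 42. These patterns were not counted over all probe sets.

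More members passed between regions. These differences were taken from the handled arrays, which also serve as the controls of the stress comparisons. Between handled amygdala and handled hippocampus 29 of 81 members differed, or 35.8%, against 28.6% of all probe sets. The direction was uneven. In amygdala 4 members were higher and 25 were lower, or 4.94% and 30.9% of members, while 15.7% of all probe sets were higher and 12.9% lower. The median log2 difference was -0.09 for members and 0.02 for all probe sets tested. The arrays of the regions did not overlap for 39 members, or 48.1%, against 39.7% of all probe sets.

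Complex I genes, assembly factors included, made up 14 of the 29. Of those tested, 11 of 28 accessory subunits, 1 of 6 core subunits and 2 of 6 assembly factors of complex I were called. Ndufb6, an accessory subunit of its membrane arm, read 702, 789.6 and 751 in amygdala and 1014, 965 and 997 in hippocampus, a log2 difference of -0.40 ± 0.06 (limma adjusted p = 1.8e-05). The lowest hippocampus array was above the highest amygdala array. Ndufs4, an accessory subunit of the arm that binds NADH, had the lowest estimate, -0.46 ± 0.14 (limma adjusted p = 0.0205), from 146, 111 and 109 in amygdala and 198, 154 and 166 in hippocampus. It lost the call without handled amygdala 2 (-0.40), handled amygdala 3 (-0.39) or handled hippocampus 1 (-0.36), with limma adjusted p of 0.0809, 0.0870 and 0.104. Ndufab1, the mitochondrial acyl carrier protein, had -0.30 ± 0.06 (limma adjusted p = 7.8e-04). Ndufa5 had -0.33 ± 0.10 and Ndufa7 -0.31 ± 0.11. Ndufa5 lost the call without handled hippocampus 1 (limma adjusted p = 0.113) or handled amygdala 3 (0.0565). Ndufa7 lost it without handled amygdala 1 or 3 or handled hippocampus 1 or 3, and its second probe set gave 0.01 (limma adjusted p = 0.976).

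Of the complex I core, 1 of 6 subunits passed. Ndufs1, the largest of its iron-sulfur subunits, read 707, 726 and 699.9 in amygdala and 822, 795 and 878 in hippocampus, a log2 difference of -0.22 ± 0.06 (limma adjusted p = 0.01). Without handled hippocampus 3 it was -0.18 (limma adjusted p = 0.0580). Ndufv1, which binds NADH, had -0.01 ± 0.06 and did not pass. Among the assembly factors Ndufaf4 was lower in amygdala, at 278, 253 and 238 against 318, 367 and 353, a log2 difference of -0.41 ± 0.09 (limma adjusted p = 7.9e-04). Ndufaf8, an assembly factor that acts on an iron-sulfur subunit of the core, was higher, at 297, 231 and 294 against 176, 195 and 191. Its log2 difference of 0.51 ± 0.11 (limma adjusted p = 0.00153) was the highest among members, and the groups did not overlap. Ndufb7 and Ndufa8, accessory subunits on the side of the space between the membranes, were also higher in amygdala, by 0.25 ± 0.07 and 0.24 ± 0.06 log2 units. The assembly factor Ndufaf7 did not pass, at 0.19 ± 0.10 (limma adjusted p = 0.148). Its second probe set, of mean intensity 142 against 162 for the main one, did, at 0.37 ± 0.11 (limma adjusted p = 0.0124).

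In complex II only Sdhd passed, with 664, 709 and 697 in handled amygdala and 876, 893 and 964 in handled hippocampus. Its log2 difference was -0.39 ± 0.06 (limma adjusted p = 3.8e-05). The second probe set of Sdhd read 279, 289 and 276 against 446, 386 and 444, a log2 difference of -0.57 ± 0.08 in the same direction (limma adjusted p = 6.4e-06). Sdha, Sdhb and Sdhc had -0.00 ± 0.06, 0.01 ± 0.07 and 0.10 ± 0.07. In complex III, Uqcrfs1 encodes the Rieske iron-sulfur protein, which takes electrons from ubiquinol. It read 887, 947 and 910.0 in amygdala and 1206, 1149 and 1306 in hippocampus, a log2 difference of -0.41 ± 0.07 (limma adjusted p = 8.1e-05). Uqcrc1 and Uqcrc2, the core proteins, had 0.09 ± 0.07 and -0.14 ± 0.06 and did not pass.

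In complex IV, 3 of 14 genes were lower in amygdala. Ndufa4, named as a complex I subunit but found in complex IV, read 2295, 2204 and 2164 against 2678, 2568 and 2901, a log2 difference of -0.29 ± 0.05 (limma adjusted p = 1.4e-04). Cox4i1 read 3954, 4037 and 3998 against 4529.8, 4459.8 and 4587, a log2 difference of -0.18 ± 0.04 (limma adjusted p = 0.00294). For both, every amygdala array lay below every hippocampus array. Cox7b was the third. Cox5a and Cox5b had 0.03 ± 0.15 and -0.04 ± 0.06. Cox6a1, Cox7a2l and Cox8a had 0.07 ± 0.07, -0.10 ± 0.06 and -0.08 ± 0.06, and none of these 5 passed. Cox5a was read by a probe set of mean intensity 157. A brighter probe set for it, of mean 2278, had several symbols and was left out.

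Of the 16 ATP synthase genes, 8 were lower and 1 was higher in amygdala. Atp5pd, a subunit of the peripheral stalk, read 2014, 2068 and 2037 in amygdala and 2546, 2445 and 2653 in hippocampus, and its log2 difference of -0.32 ± 0.05 had the smallest adjusted p of any member (1.3e-05 by limma). Atp5f1a, the alpha subunit, read 1695, 1572 and 1847 and 1972, 2068 and 2285, a log2 difference of -0.30 ± 0.07 (limma adjusted p = 0.00145). Neither gene overlapped between the regions. Atp5mc3, a gene for the ring subunit c, had -0.24 ± 0.06 and Atp5pb -0.25 ± 0.05, and both passed. The beta subunit gene Atp5f1b had -0.09 ± 0.05 and did not pass. The 1 gene that was higher in amygdala was Atp5if1, which encodes the inhibitor of ATP hydrolysis by the enzyme. It read 1081, 1173 and 1194 against 989.7, 908 and 1020.2, a log2 difference of 0.24 ± 0.07 (limma adjusted p = 0.013). The call was lost with median centring (adjusted p 0.0567), without handled amygdala 3 (0.0590) or without handled hippocampus 2 (0.0772), and in a second probe set the difference was 0.20 (limma adjusted p = 0.535).

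**Figure D2:**
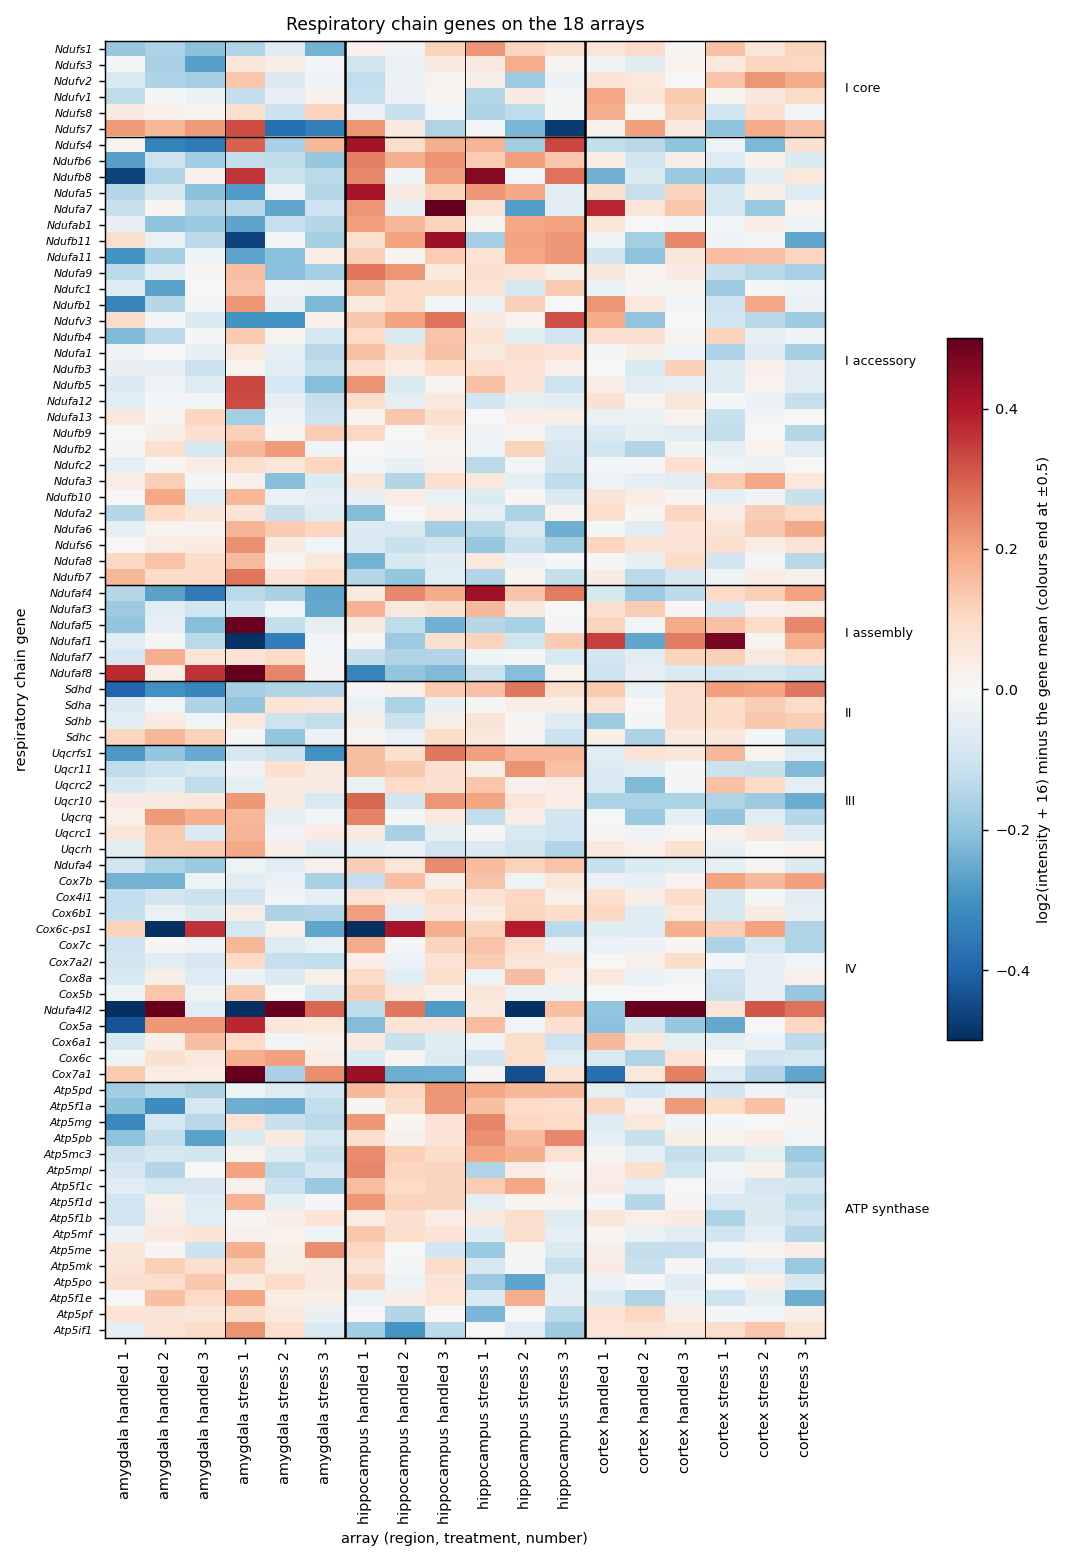
Log2(intensity + 16) of the 81 tested respiratory chain genes on each of the 18 arrays, minus the gene's mean over all arrays, with rows grouped by complex and ordered within it by the difference between handled amygdala and handled hippocampus. Blue marks values under the gene's mean and red values above it. In the block of ATP synthase genes most rows are blue in handled amygdala and red in handled hippocampus, as are the rows of Sdhd, Uqcrfs1 and Ndufb6.

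Against the handled cortex, 5 of 81 members were lower in amygdala and 0 were higher, or 6.17% and 0%, where 6.57% of all probe sets were lower and 8.13% higher. In total 14.7% of all probe sets differed. Each of the 5 belongs to a different complex. Sdhd read 964, 859 and 936 in cortex, above all its amygdala arrays, a log2 difference of -0.40 ± 0.06 (limma adjusted p = 6.9e-05). Its second probe set gave -0.52 ± 0.08 (limma adjusted p = 5.3e-05). Atp5f1a read 2109, 1986 and 2271 in cortex (-0.31 ± 0.07, limma adjusted p = 0.00234). Uqcrfs1 read 1043, 1138 and 1130.1 (-0.27 ± 0.07, limma adjusted p = 0.0104), Ndufs1 844, 865 and 812 (-0.24 ± 0.06, limma adjusted p = 0.0117) and Cox4i1 4561, 4403 and 4593 (-0.18 ± 0.04, limma adjusted p = 0.00657). In none of the 5 did a handled amygdala array reach the lowest handled cortex array. Over all members the groups did not overlap for 34, or 42.0%, against 35.2% of all probe sets. Without handled cortex 2 the calls of Uqcrfs1 and Ndufs1 were lost (limma adjusted p = 0.0514 and 0.0580). The count rose to 8 without handled amygdala 2, to 13, all lower, with median centring of the arrays, and to 9, of which 6 were lower, with quantile normalization.

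These genes are shown with their promoters because all 5 were called lower in handled amygdala than in both other handled regions, comparisons that share the amygdala arrays. The stretches are the 200 bases before the start of each gene in RefSeq's rat table of assembly GRCr8, 5′ to 3′ on the gene's strand. They lie at chr8:59850642-59850841 (minus strand) for Sdhd, chr18:73567337-73567536 (plus strand) for Atp5f1a, chr9:72073606-72073805 (minus strand) for Ndufs1, chr17:34186402-34186601 (plus strand) for Uqcrfs1 and chr19:65630183-65630382 (plus strand) for Cox4i1. Capitals mark the core motif of ETS factors such as GABPA, CCGGAAG or its reverse complement CTTCCGG.
Sdhd: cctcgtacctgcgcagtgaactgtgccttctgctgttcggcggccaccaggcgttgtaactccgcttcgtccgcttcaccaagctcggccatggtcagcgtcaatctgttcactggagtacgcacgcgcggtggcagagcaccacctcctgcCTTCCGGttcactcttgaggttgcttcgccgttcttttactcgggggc
Atp5f1a: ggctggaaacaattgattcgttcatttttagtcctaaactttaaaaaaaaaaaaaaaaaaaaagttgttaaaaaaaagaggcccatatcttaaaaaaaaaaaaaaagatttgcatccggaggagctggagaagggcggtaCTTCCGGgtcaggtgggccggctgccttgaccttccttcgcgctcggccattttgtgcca
Ndufs1: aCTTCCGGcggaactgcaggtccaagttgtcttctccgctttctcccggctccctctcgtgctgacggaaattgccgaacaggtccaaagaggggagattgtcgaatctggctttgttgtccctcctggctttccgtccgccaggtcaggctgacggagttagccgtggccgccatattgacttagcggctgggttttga
Uqcrfs1: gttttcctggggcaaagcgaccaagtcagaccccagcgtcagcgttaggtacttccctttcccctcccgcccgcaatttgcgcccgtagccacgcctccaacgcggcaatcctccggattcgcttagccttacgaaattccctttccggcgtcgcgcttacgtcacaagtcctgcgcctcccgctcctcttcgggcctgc
Cox4i1: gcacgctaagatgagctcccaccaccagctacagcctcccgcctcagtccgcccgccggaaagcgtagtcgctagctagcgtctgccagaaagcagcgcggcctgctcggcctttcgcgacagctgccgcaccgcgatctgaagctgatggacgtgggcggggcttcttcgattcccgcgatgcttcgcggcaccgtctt

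The ETS core lay in the printed stretch of Sdhd, with its first base at position -48 relative to the start, of Atp5f1a at -60 and of Ndufs1 at -199. Sdhd held a second copy after the start, at 19, and Cox4i1 held 2 copies there, at 3 and 23. The searched letters did not occur for Uqcrfs1. Windows from 250 bases before to 50 bases after the start were found for 78 of the 86 members and for 33469 starts in all, and both strands were searched. The ETS core was present in 22 of 78 members, or 28.2%, and in 8.75% of all windows. The core GCATGCGC, which resembles sites of the nuclear respiratory factor NRF1, was present in 11.5% of members and 2.47% of windows, and AAGATGGC, the core of YY1 sites, in 21.8% and 3.17%. Any of the 3 was present in 36 members, or 46.2%, and in 13.3% of windows. The searched letters of the 3 motifs do not contain one another. A match is a description of the sequence only.

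Between handled hippocampus and handled cortex 11 of 81 members differed, or 13.6%, against 25.9% of all probe sets. In hippocampus 8 were higher and 3 lower, while 12.3% of all probe sets were higher and 13.7% lower. The groups did not overlap for 32 members, or 39.5%, against 39.4% of all probe sets. Atp5pd read 2195, 2128 and 2188 in cortex, below all its hippocampus arrays, with a log2 difference of 0.23 ± 0.05 (limma adjusted p = 6.3e-04). Ndufa4 read 2274, 2347 and 2357 in cortex, with 0.22 ± 0.05 (limma adjusted p = 0.00208). Uqcr10, a small subunit of complex III, read 2379, 1828 and 2271 in hippocampus and 1745, 1744 and 1744 in cortex, with 0.30 ± 0.08 (limma adjusted p = 0.00654). Its 3 cortex arrays were nearly equal, and the spread lay in the hippocampus. Without handled hippocampus 1 it gave 0.22 (limma adjusted p = 0.0571). The other higher members were Ndufaf4 (0.29), Ndufb6 (0.23), Atp5mc3 (0.20), Atp5f1d (0.19) and Uqcr11 (0.17).

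The members lower in hippocampus than in cortex were Atp5if1, Ndufs6 and Ndufv1. Atp5if1 read 1168, 1177 and 1163 in cortex, above all its hippocampus arrays, with a log2 difference of -0.26 ± 0.07 (limma adjusted p = 0.00668). Ndufs6, an accessory subunit, had -0.17 ± 0.06 and Ndufv1 -0.17 ± 0.06. Only the calls of Atp5pd and Ndufa4 held in all 17 alternative settings, the stress arrays included. The count fell to 6 without handled hippocampus 1 or without handled cortex 2. Leaving out handled cortex 2 ended the calls of Ndufb6, Ndufaf4, Atp5f1d, Uqcr11 and Ndufs6. Leaving out handled hippocampus 1 ended those of Uqcr10, Atp5mc3, Atp5f1d, Uqcr11 and Ndufv1. Single arrays also ended the calls of Ndufaf4 (handled hippocampus 2), Atp5mc3 (handled cortex 3), Uqcr11 (handled hippocampus 2, handled cortex 1), Ndufs6 (handled hippocampus 2 or 3, handled cortex 1) and Ndufv1 (handled hippocampus 2, handled cortex 1 or 3). A second probe set of Atp5if1 gave -0.09 ± 0.21 (limma adjusted p = 0.803). For Ndufaf7 the main probe set gave -0.13 ± 0.10 (limma adjusted p = 0.384) and a second one -0.44 ± 0.11 (limma adjusted p = 0.00316).

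**Figure D3:**
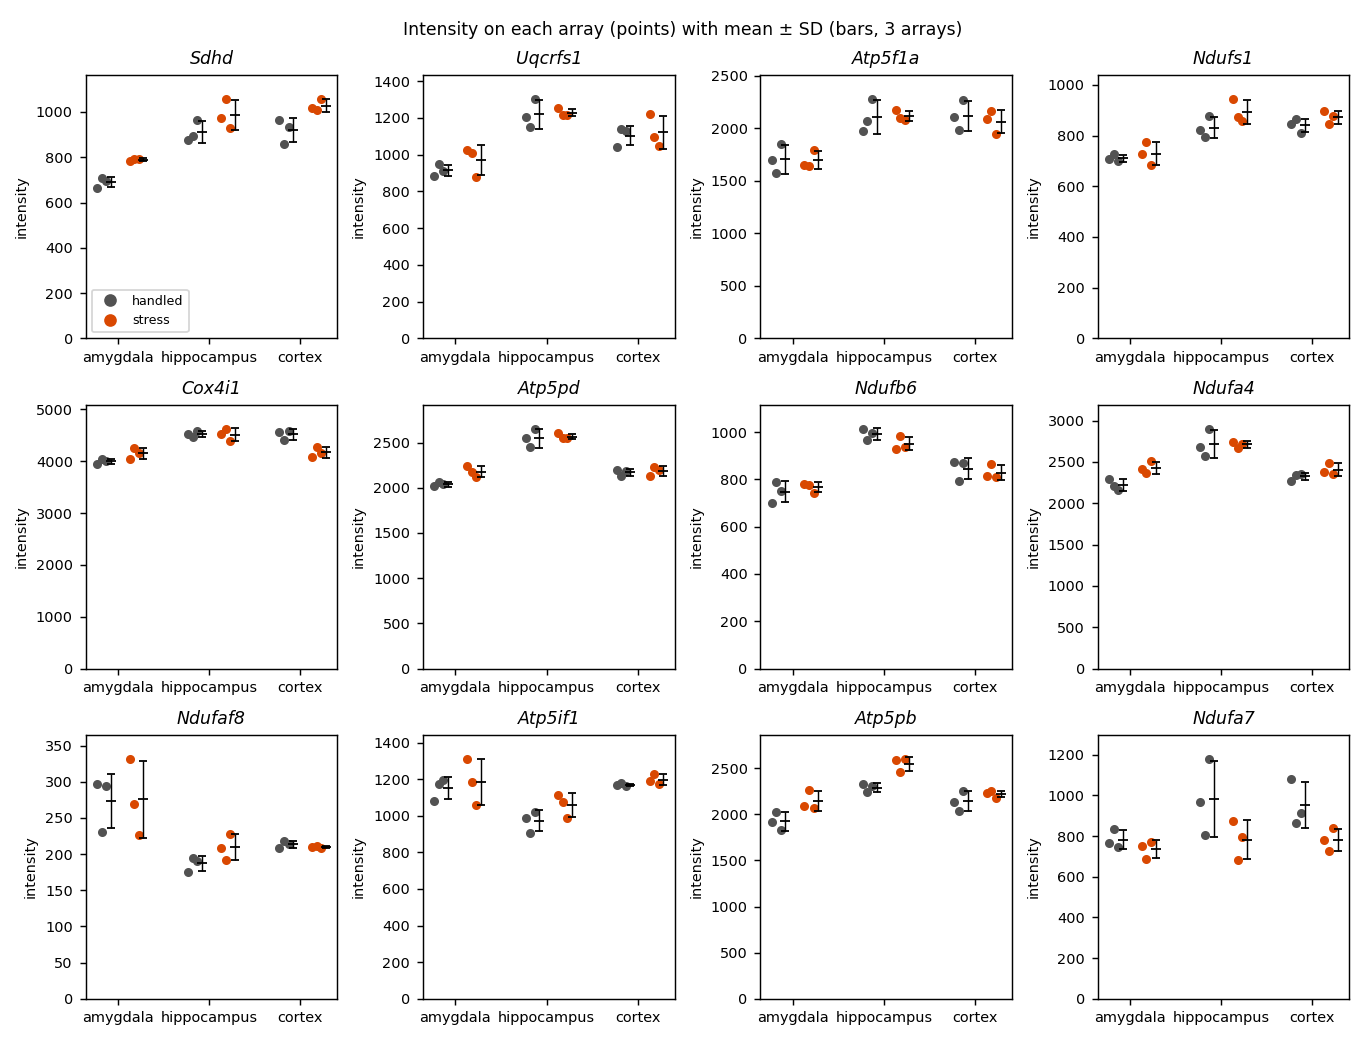
Intensity of 12 respiratory chain genes on every array, by region, with grey points for handled and orange points for stress arrays and bars for the mean ± SD of 3 arrays. The axes start at 0. The amygdala arrays of Sdhd, Uqcrfs1, Atp5f1a and Ndufs1 lie lowest of the 3 handled regions, those of Ndufaf8 lie highest, and the hippocampus arrays of Atp5pd, Ndufb6 and Ndufa4 lie highest.

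The stress arrays gave a second reading of the regional differences, with group means from arrays outside the handled groups. In both readings the spread was estimated from all 18 arrays, so their standard errors and p-values are not separate. The comparison of stress arrays was added after the handled values had been seen. How often calls repeated over all probe sets was not counted, so the repeats below do not set the members apart. Between stressed amygdala and stressed hippocampus 24 members differed, or 29.6%, against 27.8% of all probe sets, and 7 were higher and 17 lower, against 15% and 12.8% of all probe sets. Of the 25 members lower in handled amygdala, 16 were also lower in stressed amygdala, which is 64% of the handled and 94.1% of the stress list. They include Sdhd (-0.32 ± 0.06, limma adjusted p = 4.5e-04), Ndufaf4 (-0.46 ± 0.09, 2.4e-04), Atp5pd (-0.24 ± 0.05, 4.6e-04), Ndufb6 (-0.30 ± 0.06, 4.9e-04) and Uqcrfs1 (-0.34 ± 0.07, 6.3e-04). Ndufs4 had -0.01 ± 0.14 here and did not pass. Of the 4 higher members, Ndufaf8 (0.36 ± 0.11) and Ndufb7 (0.23 ± 0.07) passed again, which is 50% of the handled and 28.6% of the stress list. Ndufa6, Ndufs6, Atp5po, Atp5me and Ndufc2 were called as higher in the stress arrays alone, with Ndufa6 the largest at 0.29 ± 0.06.

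Between stressed amygdala and stressed cortex 17 members differed, or 21%, against 19.8% of all probe sets, and 8 were higher and 9 lower, against 9.68% and 10.1% of all probe sets. Of the 5 members lower in handled amygdala, Sdhd (-0.38 ± 0.06), Atp5f1a (-0.28 ± 0.07), Ndufs1 (-0.25 ± 0.06) and Uqcrfs1 (-0.21 ± 0.07) were lower again, which is 80% of the handled and 44.4% of the stress list. Cox4i1 was not, at -0.01 ± 0.04 (limma adjusted p = 0.952). Its stressed cortex arrays read 4076, 4279.9 and 4154. Between stressed hippocampus and stressed cortex 14 members differed, or 17.3%, against 25.4% of all probe sets, and 11 were higher and 3 lower, against 12% and 13.4%. There 6 of the 8 higher members (75% of the handled, 54.5% of the stress list) and 1 of the 3 lower ones passed again. Across the 81 members the handled and stress estimates of a regional difference had a Pearson correlation of 0.79 for amygdala against hippocampus, 0.68 for amygdala against cortex and 0.79 for hippocampus against cortex. These are descriptions across genes, which are not independent replicates. The sign was the same for 65, 52 and 66 of 81 members. Neither the correlations nor the counts of equal sign were taken over all probe sets.

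**Figure D4:**
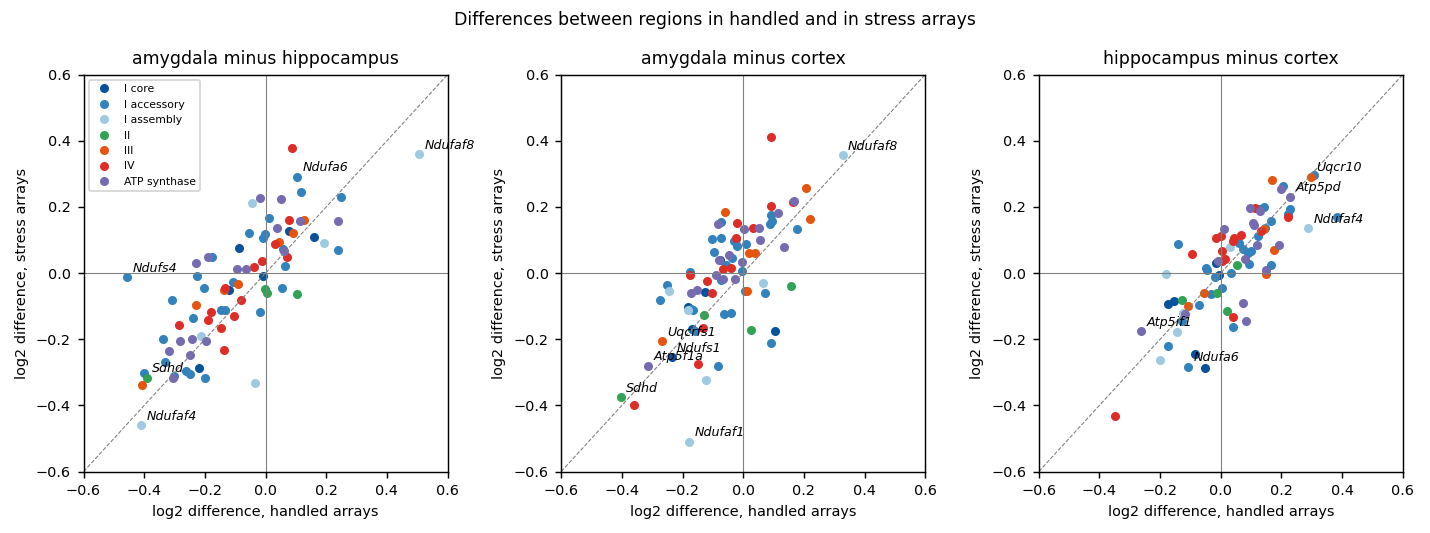
Log2 difference between regions of the 81 tested respiratory chain genes, from the handled arrays on the horizontal and from the stress arrays on the vertical axis, with the dashed line where both are equal and colours for the complex. Points run along the dashed line in each panel, with correlations of 0.79, 0.68 and 0.79, and Sdhd lies low on both axes in both amygdala panels.

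Cell type markers and RNA quality also differed between the regions. Of 10 oligodendrocyte markers 9 were lower in handled amygdala than in hippocampus and 10 were higher than in cortex. Their summed intensity ran from 17208 to 18280 in handled amygdala, from 22287 to 24830 in hippocampus and from 11644 to 12217 in cortex. Of 11 neuron markers 4 were higher and 6 lower in amygdala than in hippocampus, and their sums ran from 27781 to 28509 and from 28617 to 29850. Of 6 microglia markers 6 were higher in amygdala than in hippocampus, with sums over 8 genes between 1197 and 1229 and between 793 and 810. Of 9 meningeal fibroblast markers 5 were lower in amygdala than in hippocampus and 8 lower than in cortex, with sums between 1153 and 1260 in amygdala, 2087 and 2245 in hippocampus and 4709 and 4971 in cortex. Of 8 striatal medium spiny neuron markers 6 were higher in amygdala than in hippocampus, and 5 were higher and 1 lower than in cortex, with sums between 3257 and 3594 in amygdala, 1189 and 1359 in hippocampus and 1599 and 1682 in cortex. Of 4 choroid plexus markers tested 1 was lower in amygdala than in hippocampus and 1 higher than in cortex, with sums over 6 genes between 649 and 664 in amygdala, 1239 and 1360 in hippocampus and 168 and 215 in cortex. No marker of these lists was listed at 0. The 3′ to 5′ log2 difference of the beta-actin control was 2.07 ± 0.08 in handled amygdala, 1.54 ± 0.23 in hippocampus and 1.66 ± 0.05 in cortex, and that of the GAPDH control 0.45 ± 0.04, 0.26 ± 0.10 and 0.29 ± 0.04 (SD, n = 3). The hexokinase control went the other way, at 0.83 ± 0.08 in handled amygdala, 1.02 ± 0.11 in hippocampus and 1.11 ± 0.09 in cortex (SD, n = 3). The part of cell composition and of RNA quality in the regional differences of the members was not tested.

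The members' spread between arrays of a group is given as a description. The median within-group SD of log2 values was 0.08 for the 81 members and 0.17 for all probe sets tested. It ran from 0.03 to 0.61 among members, and Ndufa4l2, Cox6c-ps1, Cox7a1 and Ndufs7 had the 4 largest. Mean intensities of these were 48.5, 41.4, 46.1 and 743. Members and all probe sets were not matched by brightness, so the medians do not show that members vary less at equal brightness. Ndufa4l2, a paralog of Ndufa4 known from low oxygen, was read between 6.41 and 76.2, and Cox7a1, an isoform of heart and skeletal muscle, between 28.9 and 82.8. Neither passed in any comparison of stress or of handled regions. After group means were removed, the mean correlation of a pair of members over the 18 arrays was 0.13, against 0.00034 over all probe sets. It was 0.22 within the ATP synthase, 0.17 within complex III and -0.01 within the complex I core. Pairs share arrays and brightness, and no test was made.

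Other mitochondrial genes were read from lists set by name. Of 24 genes of the tricarboxylic acid cycle and pyruvate dehydrogenase, 13 were lower and 2 higher in handled amygdala than in handled hippocampus, with a median log2 difference of -0.23 against 0.02 over all probe sets. Lower were Mdh1 (-0.35 ± 0.05, limma adjusted p = 1.1e-05), the cytosolic malate dehydrogenase, Mdh2 (-0.37 ± 0.07, 1.3e-04), its mitochondrial partner, and Idh3a (-0.40 ± 0.08, 4.5e-04), the catalytic subunit of isocitrate dehydrogenase. Suclg2, the GTP-forming succinyl-CoA ligase subunit, was higher (0.46 ± 0.07, 3.3e-05). Of 21 carriers, pores and uncoupling proteins 6 were lower and 2 higher, and the adenine nucleotide carriers Slc25a4 and Slc25a5 were lower by estimates of -0.26 ± 0.05 and -0.36 ± 0.05. Ucp2 had the lowest estimate of those 6 (-1.06 ± 0.15, limma adjusted p = 6.1e-06). Of 21 antioxidant and quality control genes 4 were lower and 3 higher, of 30 assembly factors outside the rule 2 and 1, and of 19 regulators of mitochondrial biogenesis 2 and 1. These counts stand beside 12.9% lower and 15.7% higher among all probe sets. Cyc1, the cytochrome subunit of complex III that the naming rule misses, was lower (-0.24 ± 0.06, 0.00211). Only this regional comparison is given for these lists.

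Under stress none of these lists had a gene called within a region, where 2.41%, 0.365% and 0.387% of all probe sets were. Averaged over regions, 1.59% of all probe sets rose and 3.07% fell. Cs (0.14 ± 0.03, limma adjusted p = 0.0121), the citrate synthase, and Dld (0.15 ± 0.04, 0.0496) rose and Mpc2, a pyruvate carrier (-0.15 ± 0.04, 0.033), fell among the 24 cycle genes. Tmem126b (0.22 ± 0.04, 0.0031), an assembly factor of complex I, and Sdhaf2 (0.19 ± 0.05, 0.0495), which assists the flavinylation of Sdha, rose among 30 assembly factors. Ppargc1b, a coactivator of mitochondrial biogenesis, fell (-0.36 ± 0.09, 0.0177), the 1 of 19 regulators called. COX1, encoded by mitochondrial DNA, fell as well, the 1 called of 3 chain genes outside the rule (-0.18 ± 0.05, 0.0344). Of 21 antioxidant and quality control genes Gpx4 and Mfn2 rose, at 0.11 ± 0.03 and 0.14 ± 0.04.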

How the data were processed

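The deposited table holds linear intensities, with a value for each probe set on each array, and their trimmed means are equal across arrays as deposited. How probes were summarised, and with which software, is not given in the sources used here. No further scaling was applied. With 3 arrays a group, their number limits the precision. Of 31099 probe sets, 20832 had 1 gene symbol, 436 several and 9831 none, and 57 controls were left out of the tests. All 86 members were matched to RefSeq genes.

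Log2(intensity + 16) was fitted with limma 3.58.1 in R 4.3.3, with 6 group means over 18 arrays, a variance trend, 12 residual and 10.1 prior degrees of freedom, and probe sets at or above the 40th percentile of mean intensity (18625 kept). P-values are two-sided and were adjusted by the Benjamini-Hochberg method across all kept probe sets. Errors of log2 values are standard errors. An exact permutation test of 3 against 3 arrays could not go below 0.1. The fit was tested on simulated data without regional differences or shared array effects, and no result here rests on that test. Named were up to 10 called members per direction, reference members and isoforms set by name, and the 3 smallest p-values where fewer than 3 passed. The members, the gene lists and the rule were chosen with earlier results of these data known. Alternatives were offsets, filters, normalizations, the variance trend, a replicate block, second probe sets and leaving out each array.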

Additional observations from a re-analysis of the deposited data

How the results depend on the processing

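Counts of called members are given first as reported and then under each alternative. Stress in cortex went from 0 to 2 with the arrays of the contrast alone. The mean stress effect went from 3 to 1 with no filter and to 0 with no variance trend. Handled amygdala against cortex went from 5 to 17 in the stress arrays, to 10 with the filter at the 60th percentile, to 13 with median centring, to 9 with quantile normalization and to 14 with the arrays of the contrast alone. Hippocampus against cortex went from 11 to 6 with no variance trend. Leaving out 1 array gave 0 to 1 for stress in amygdala and in hippocampus, 0 in cortex, 1 to 5 for the mean stress effect, 20 to 28 for amygdala against hippocampus, 5 to 8 for amygdala against cortex and 6 to 10 for hippocampus against cortex. The split of amygdala against hippocampus, 4 higher and 25 lower, was 3 and 30 with median centring and 7 and 22 with quantile normalization, and the mean stress effect was 2 higher and 0 lower with median centring. Among named members called in the main fit or the alternative, signs turned for Ndufa7 with its second probe set, in the mean stress effect (0.0857) and in amygdala against hippocampus (0.00779). They also turned for Atp5f1b in amygdala against cortex in the stress arrays (0.15). For named members called in neither, the sign turned in 310 combinations of gene, comparison and setting. The causes were not tested.

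With the replicate number in the titles as a block, 29 members were called in amygdala against hippocampus, 6 in amygdala against cortex, 12 in hippocampus against cortex, 3 in the mean stress effect and 0 within regions. Same-numbered stress and handled arrays of a region did not deviate together (correlations from -0.03 to 0.01, 0 of 9 over 0.1). Over all pairs of groups, those across regions included, the correlations ran from -0.04 to 0.099, with 0 of 45 over 0.1. With 3 arrays a group these values show no pairing by number, but they cannot exclude one.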
